A study of Homo sapiens with 6 samples.

Results

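The genes described here are 9 members of the urokinase and plasminogen activator system, chosen by name and looked up in the symbol column of the deposited count table, which has 58735 gene rows. Each of the 9 symbols matched 1 row. They are the activators PLAU and PLAT, the receptor PLAUR, the zymogen PLG, the plasminogen-binding annexin ANXA2 and the serpins SERPINE2, SERPINB2, SERPINB8 and SERPINF1. RNA was sequenced from 3 cultures of untreated PANC1, an established human line from a pancreatic duct carcinoma, and from 3 cultures of PANC1OR, a subline obtained by passaging PANC1 in rising amounts of the DNA-damaging platinum compound oxaliplatin. Both lines were grown in DMEM with serum. PANC1OR is 1 selected subline described as stable without the drug. The sample titles call PANC1 untreated and do not say this of PANC1OR. Because 1 parental and 1 resistant line were compared, the p-values reflect only how far cultures of the same line varied. The comparison asks which genes differ in level between them.

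The plasminogen activator system is a proteolytic cascade at the cell surface. Urokinase, the product of PLAU, is secreted as a zymogen, binds its lipid-anchored receptor PLAUR and cleaves plasminogen to plasmin, a broad protease that degrades fibrin and matrix and activates other proteases and growth factors. Serpins trap the activators irreversibly, and LRP1 carries the trapped complexes into the cell. In pancreatic carcinoma, urokinase and its receptor are known for their roles in invasion and matrix turnover.

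Between 10199268 and 26394388 reads per library were assigned to genes. PANC1OR replicate 3 stood apart from the other resistant libraries. Its genes with over 60% GC had a median log2 deviation of 1.32 from the mean of those other libraries. For its genes with under 40% GC this was -0.95. PANC1 replicate 2 deviated the same way from the other PANC1 libraries, by 0.34 and -0.25. Of 8 ductal epithelial markers, 7 had a mean above 1 CPM (counts scaled to the adjusted library total) in PANC1 and 8 in PANC1OR. Summed, they were at 1072 to 1960 CPM in PANC1 and 687 to 1401 in PANC1OR. Of these, the duct keratin gene KRT19 fell from 326 ± 121 to 23.3 ± 11.8 CPM (SD, n = 3; edgeR adjusted p = 0.000635). KRT8, another keratin gene of the list, was at 484 ± 256 and 429 ± 251 CPM and did not pass (edgeR adjusted p = 0.849). The other ductal markers are not given gene by gene here, so KRT19 and KRT8 do not stand for the list. The 6 acinar markers summed to at most 0.522 CPM and the 5 endothelial ones to at most 0.627 CPM in any library. The 7 fibroblast markers summed to 115 to 126 CPM in PANC1 and 121 to 309 in PANC1OR, and the 7 leukocyte markers to 1.88 to 2.37 and 3.89 to 7.84 CPM. AMY2A, PNLIP and CD3E had no read in any library, and the fibroblast genes COL1A2, DCN and LUM were at or below 0.112 CPM in each. The fibroblast sum came mostly from the collagen gene COL1A1, at 95.3, 80.4 and 86.3 CPM in PANC1 and 115, 109 and 291 CPM in PANC1OR (adjusted p = 0.123), and from THY1, which fell from 29.6 ± 6.27 to 7.32 ± 1.68 CPM (adjusted p = 0.00141). COL3A1 and PDGFRB, the other 2, were at 3.06 and 0.529 CPM in PANC1 and 5.43 and 1.05 CPM in PANC1OR and did not pass.

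Of the 9 members, 8 passed the filter on low counts and 1, SERPINB2, had no read. Among the 8 tested, 3 rose (PLAU, PLAUR and SERPINB8), 1 fell (SERPINE2) and 4 did not pass (PLAT, PLG, SERPINF1 and ANXA2), at an adjusted p under 0.05 in edgeR's quasi-likelihood test over all tested genes. Over all 18751 tested genes 17.8% were called, 10.3% higher and 7.5% lower. PLAUR and SERPINB8 also passed the cutoffs of the series design text, an absolute log2 fold change over 2 with an adjusted p under 0.01, as did 6.25% of all tested genes. The median log2 fold change, PANC1OR minus PANC1, was 0.46 over the 8 tested members and 0.04 over all tested genes. In RNA of whole cultures, fewer cells expressing a gene and less of its RNA per cell cannot be told apart.

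The sequences just before the transcription starts of the 3 risen members and of the unread SERPINB2 are shown because urokinase system genes are textbook targets of AP-1, a dimer of FOS and JUN family proteins. Each run is the 250 bases before a start in the RefSeq promoter table (GRCh38.p14), 5′ to 3′ along the gene's strand. Capitals mark matches to any of 5 motifs on either strand. The AP-1 motif was searched as TGANTCA, where N is any base. The motif of ETS family factors was searched as AGGAAG in both orientations. Binding letters of SP1, a factor of GC-rich promoters, were GGGCGG in the same search. The TATA box was taken as the letters TATAAA alone. The NF-kappaB motif was GGGA followed after 4 bases of any kind by a pair of C.
PLAU (chr10:73910882-73911131, plus strand, the downstream one of its windows): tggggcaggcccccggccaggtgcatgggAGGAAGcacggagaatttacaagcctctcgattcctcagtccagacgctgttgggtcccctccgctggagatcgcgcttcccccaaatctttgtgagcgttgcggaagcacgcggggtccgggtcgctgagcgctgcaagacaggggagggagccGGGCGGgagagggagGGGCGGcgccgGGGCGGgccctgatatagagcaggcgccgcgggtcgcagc
PLAUR (chr19:43670170-43670419, minus strand): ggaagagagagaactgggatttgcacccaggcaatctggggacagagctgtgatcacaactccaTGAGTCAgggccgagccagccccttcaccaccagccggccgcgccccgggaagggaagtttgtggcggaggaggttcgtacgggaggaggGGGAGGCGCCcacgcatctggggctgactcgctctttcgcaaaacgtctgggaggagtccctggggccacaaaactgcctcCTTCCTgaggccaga
SERPINB8 (chr18:63969831-63970080, plus strand): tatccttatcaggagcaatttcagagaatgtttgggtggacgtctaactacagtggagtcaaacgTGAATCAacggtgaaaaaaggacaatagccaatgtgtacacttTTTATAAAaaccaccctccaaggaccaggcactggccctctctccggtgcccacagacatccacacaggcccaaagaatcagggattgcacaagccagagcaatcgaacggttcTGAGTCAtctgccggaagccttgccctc
SERPINB2 (chr18:63887455-63887704, plus strand): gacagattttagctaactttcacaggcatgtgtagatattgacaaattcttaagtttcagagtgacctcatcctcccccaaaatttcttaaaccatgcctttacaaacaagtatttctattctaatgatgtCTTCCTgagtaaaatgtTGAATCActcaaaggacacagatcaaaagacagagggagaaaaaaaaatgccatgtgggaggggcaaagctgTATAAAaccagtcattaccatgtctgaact

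In these windows PLAUR had an AP-1 match starting 186 bases before its start, SERPINB8 had matches at 185 and 28 bases, and SERPINB2 had one at 102 bases. The PLAU window held 3 SP1 matches, at 66, 51 and 40 bases, and an ETS match at 221 bases, but no AP-1 or TATA match. PLAUR also had an NF-kappaB match at 96 bases and an ETS match at 15. The 2 TATA matches of SERPINB8, at 142 and 140 bases, overlap each other. The known AP-1 enhancer of PLAU lies farther upstream than this window reaches. The table held 10 windows for 7 of the 9 members, and ANXA2 also had an AP-1 match, at 127 bases. AP-1 letters occurred in 6.57% of all 35116 windows of the same length, ETS letters in 28.7%, NF-kappaB letters in 22.6%, TATA in 10.7% and SP1 in 42.6%. The members with AP-1 letters near the start thus included 2 that rose, 1 that did not pass the test and 1 without reads.

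PLAU, the gene of urokinase, was the abundant activator transcript in both lines. It was at 296.6, 316 and 299 CPM in PANC1 replicates 1 to 3 and at 593, 584 and 824 CPM in PANC1OR replicates 1 to 3. Every PANC1OR library was above every PANC1 library, and within PANC1OR replicate 3 was the highest. The means were 304 ± 10.6 and 667 ± 136 CPM (SD, n = 3), which is 2.19-fold, or 1.13 ± 0.20 (SE) as a log2 fold change (edgeR adjusted p = 0.00539). The gene (ENSG00000122861) lies on chromosome 10 at 73909177 to 73917496 on the plus strand, and its longest transcript has 54.0% GC. Once each library's GC trend was entered as an offset, the value was 1.13, and without PANC1OR replicate 3 it was 0.94 (adjusted p = 0.000279).

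On the opposite strand, exons of C10orf55 overlap those of PLAU by 915 bases. The strand setting of the counting is not known here, so reads of this stretch cannot be assigned to either gene. C10orf55 had 139 reads in PANC1 and 289 in PANC1OR, against 12685 and 35193 for PLAU.

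PLAT, the gene of tissue-type plasminogen activator, the main fibrinolytic activator of blood vessels, was near the detection limit. It was at 0.872, 0.731 and 1.22 CPM in PANC1 and 1.196, 0.687 and 1.07 CPM in PANC1OR, with 41 and 56 reads in all. The lines overlapped, and the log2 fold change was 0.05 with a 95% interval of -0.80 to 0.91 (edgeR adjusted p = 0.948). PLAT (ENSG00000104368) lies on chromosome 8 at 42174718 to 42207709.

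PLAUR, the gene of the urokinase receptor, had a low level in PANC1 and a higher one in PANC1OR. Its levels were 2.24, 1.46 and 2.14 CPM in PANC1, from 36, 14 and 35 reads, and 7.998, 8.62 and 14.2 CPM in PANC1OR, from 214, 138 and 172 reads. The lowest resistant library was above the highest parental one, and PANC1OR replicate 3 was again the highest. The means were 1.95 ± 0.424 and 10.3 ± 3.42 CPM (SD, n = 3), which is 5.17-fold, or 2.37 ± 0.33 (SE) on the log2 scale (edgeR adjusted p = 0.00177). PLAUR has 55.7% GC, and the value was 2.31 with GC offsets and 2.04 without PANC1OR replicate 3 (adjusted p = 0.000146). The gene (ENSG00000011422) lies on chromosome 19 at 43646095 to 43670547 on the minus strand.

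Leukocytes also express PLAUR at high levels. Of the leukocyte markers, the pan-leukocyte gene PTPRC was at 0 to 0.0623 CPM in PANC1 and 0.0826 to 0.4996 in PANC1OR, and CD14, a lipopolysaccharide co-receptor gene, rose from 0.290 to 2.84 CPM. The T cell gene CD3E had no read and the lysozyme gene LYZ was at most at 0.0624 CPM. ITGAM, another of these markers, went the other way, at a mean of 0.338 CPM in PANC1 and 0.0649 CPM in PANC1OR. It had 13 and 4 reads in all, too few to be tested. The remaining markers, CD68 and CSF1R, are not described here. The part of such cells in the PLAUR difference was not tested.

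PLG, the gene of plasminogen, the zymogen made mainly by the liver, had few reads. It was at 0.809, 0.731 and 0.734 CPM in PANC1 and at 1.61, 1.75 and 0.743 CPM in PANC1OR. PANC1OR replicates 1 and 2 were above the parental libraries, while replicate 3 lay among them. The log2 fold change was 0.87 ± 0.39 (SE; 95% interval -0.04 to 1.78) and did not pass (edgeR adjusted p = 0.185). Without PANC1OR replicate 3 it was 1.11 and passed (adjusted p = 0.0147), a fit in which 44.1% of all tested genes were called. The near-identical plasminogen-like genes PLGLA and LPA had no read, and PLGLB1 and PLGLB2 were at or below 0.209 CPM. PLG (ENSG00000122194) lies on chromosome 6 at 160702194 to 160754097.

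ANXA2, a calcium-dependent membrane protein gene whose product pairs with S100A10 and binds plasminogen, was abundant in both lines. It was at 909.5, 1273 and 963 CPM in PANC1 and at 1016, 1017 and 1154 CPM in PANC1OR. The lines overlapped, with the highest and the lowest value both in PANC1. The log2 fold change was 0.02 with a 95% interval of -0.43 to 0.47 (edgeR adjusted p = 0.966). Its pseudogene ANXA2P2, a near-identical copy, had 85 and 120 reads in all, against 42539 and 57446 for ANXA2. Its partner gene S100A10 was at 199 ± 54.9 and 236 ± 4.10 CPM (SD, n = 3; log2 fold change 0.25, adjusted p = 0.518). ANXA2 (ENSG00000182718) lies on chromosome 15 at 60347134 to 60402883.

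The serpin members went in different directions. SERPINB8 encodes an intracellular serpin that inhibits furin and several trypsin-like proteases. It was at 0.747, 0.836 and 0.489 CPM in PANC1 and at 4.75, 5.18 and 4.79 CPM in PANC1OR, from 28 and 268 reads in all. The resistant libraries lay close together, well above the parental ones. The log2 fold change was 2.84 ± 0.30 (SE; adjusted p = 0.000472), or 7.18-fold, and it was 2.84 with GC offsets.

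SERPINB8 (ENSG00000166401) lies on chromosome 18 at 63970029 to 64019779 on the plus strand, at the edge of a cluster of serpin genes. HMSD, a gene with a serpin domain on the same strand, shares 370 bases of exon with it and rose from 27 to 454 reads (log2 fold change 3.59 ± 0.49 (SE), adjusted p = 0.00175). Reads in the shared exon cannot be assigned to either gene here. An unnamed gene on the opposite strand overlaps it by 153 bases and had 7 and 87 reads.

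SERPINB2, which encodes an inhibitor of urokinase known from macrophages and keratinocytes, lies in the same cluster at 63871692 to 63903888. It had 0 reads in each of the 6 libraries. A floor of 3 reads over a group allows a level of up to 0.0715 CPM in PANC1 and 0.0547 CPM in PANC1OR, which covers counting error only. Of 11 other clade B serpin genes, 7 had no read in any library. SERPINB1, SERPINB6 and SERPINB9 were the 3 tested. By edgeR's test 0 were called, 0 had an unadjusted p under 0.05, and DESeq2 and edgeR's likelihood ratio test also called 0. With PANC1 replicate 2 and PANC1OR replicate 3 dropped together, a choice made after seeing the data, SERPINB9 was called higher (edgeR adjusted p = 0.0211). That fit called 11422 of all tested genes, in place of 3345.

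SERPINE2 encodes protease nexin 1, which inhibits thrombin, urokinase and tissue-type activator at the cell surface. It was at 0.685, 0.731 and 1.41 CPM in PANC1, from 11, 7 and 23 reads, and at 0.224, 0.375 and 0.248 CPM in PANC1OR, from 6, 6 and 3 reads. The lines did not overlap, and PANC1 replicate 3 was the highest. The log2 fold change was -1.76 ± 0.48 (SE; adjusted p = 0.0374), or 3.39-fold lower. The call was lost without any 1 library other than PANC1OR replicate 3: the adjusted p was 0.0694, 0.0682 and 0.205 without PANC1 replicates 1, 2 and 3 and 0.159 and 0.0757 without PANC1OR replicates 1 and 2. It was also lost with the replicate number as a block (adjusted p = 0.104). SERPINE2 (ENSG00000135919) lies on chromosome 2 at 223975045 to 224039318.

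SERPINF1 encodes pigment epithelium-derived factor, a secreted serpin that does not inhibit proteases and is known as an inhibitor of blood vessel growth. It was at 3.80, 3.55 and 3.55 CPM in PANC1 and at 3.48, 2.81 and 2.64 CPM in PANC1OR. The lines did not overlap, but the log2 fold change of -0.28 (95% interval -0.84 to 0.28) did not pass (edgeR adjusted p = 0.508). SERPINF1 (ENSG00000132386) lies on chromosome 17 at 1762029 to 1777565.

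**Figure D1:**
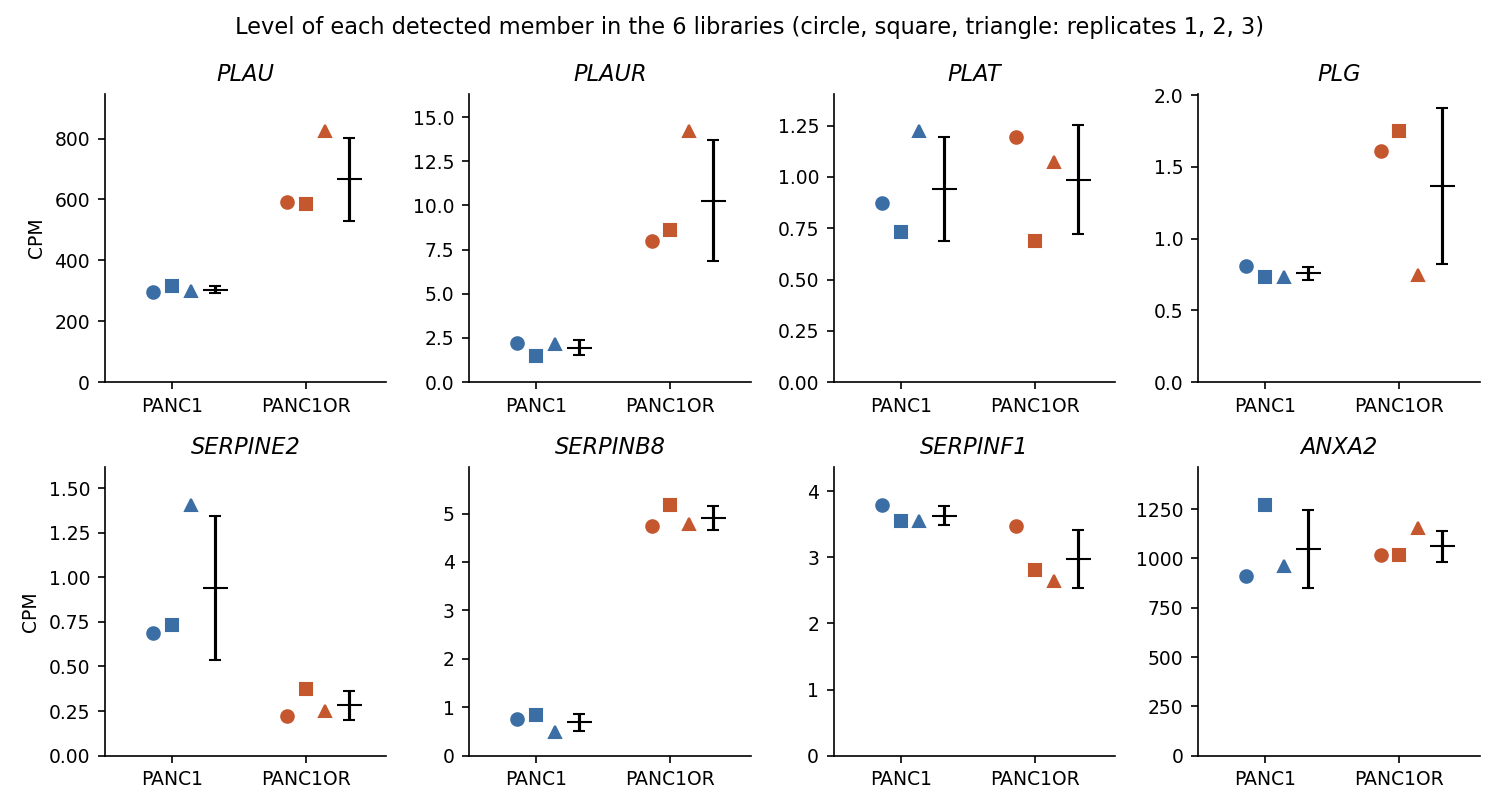
Level in CPM (vertical axis, from 0) of the 8 members with reads in PANC1 (blue) and PANC1OR (orange). Circles, squares and triangles are replicates 1, 2 and 3, and the black mark with its bar is the mean ± SD of 3 libraries. PLAU, PLAUR and SERPINB8 are higher in each PANC1OR library than in any PANC1 library, SERPINE2 and SERPINF1 are lower, and PLAT, PLG and ANXA2 overlap. SERPINF1 did not pass the test, and the share of all tested genes without overlap was not counted.

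**Figure D2:**
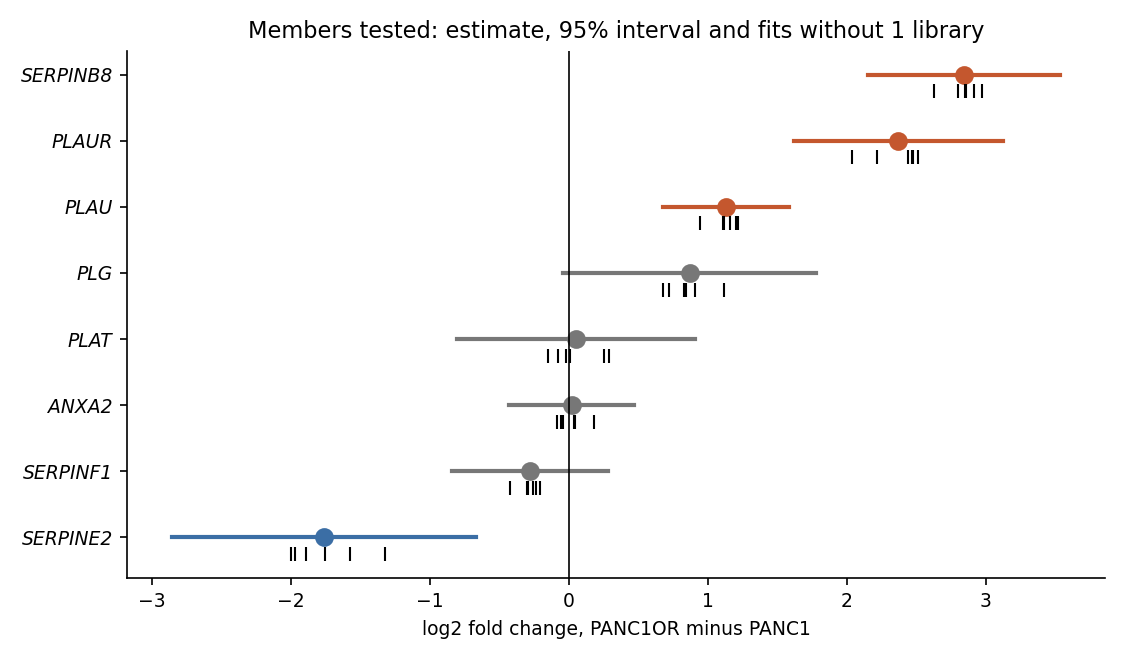
Log2 fold change, PANC1OR minus PANC1 (horizontal axis), of the 8 tested members, with the 95% interval as a line. Orange and blue are called higher and lower and grey is not called, and the short black ticks are the fits without 1 library each. The ticks of SERPINB8 run from 2.62 to 2.97, those of PLAUR from 2.04 to 2.51 and those of PLAU from 0.94 to 1.22.

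Levels of different genes were compared per exon length, as TPM computed from the counts. In PANC1, PLAU was at 329 ± 43.6 TPM and ANXA2 at 285 ± 2.49 (SD, n = 3), with overlapping libraries, followed by SERPINF1 at 3.91 ± 0.750 and PLAUR at 1.44 ± 0.509. PLAT, SERPINB8, SERPINE2 and PLG were between 0.274 and 0.395 TPM, and their ranges overlapped. In PANC1OR, PLAU was at 686 ± 41.9 TPM and ANXA2 at 281 ± 17.8, and PLAUR, at 6.91 ± 1.26, stood above SERPINF1 at 3.10 ± 0.790 and SERPINB8 at 2.63 ± 0.406. The libraries of SERPINF1 and SERPINB8 overlapped there. PLG at 0.488, PLAT at 0.389 and SERPINE2 at 0.0980 TPM were the lowest with reads, and the libraries of PLG and PLAT overlapped. The order of the leading pair depended on the length used: per length of the canonical transcript, ANXA2 was at 1452 and 1449 TPM and PLAU at 284 and 597 TPM.

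PLAU made up 99.9% of the summed TPM of PLAU and PLAT in both lines. The ratio of PLAU to PLAUR was 200.003, 327 and 211 in PANC1 and 112, 102 and 87.7 in PANC1OR, so the ligand transcript outnumbered that of its receptor in every library. Per canonical length these ratios were 77.3, 126 and 81.6 in PANC1 and 43.3, 39.5 and 33.9 in PANC1OR. The summed serpin members were at 5.33, 3.70 and 4.85 TPM in PANC1 and 6.74, 6.19 and 4.56 TPM in PANC1OR, and the lines overlapped. This sum is not a measure of urokinase inhibitors. SERPINF1, which does not inhibit proteases, made up 3.91 of the mean of 4.63 TPM in PANC1 and 3.10 of 5.83 TPM in PANC1OR. SERPINB8 made up 2.63 TPM in PANC1OR.

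**Figure D3:**
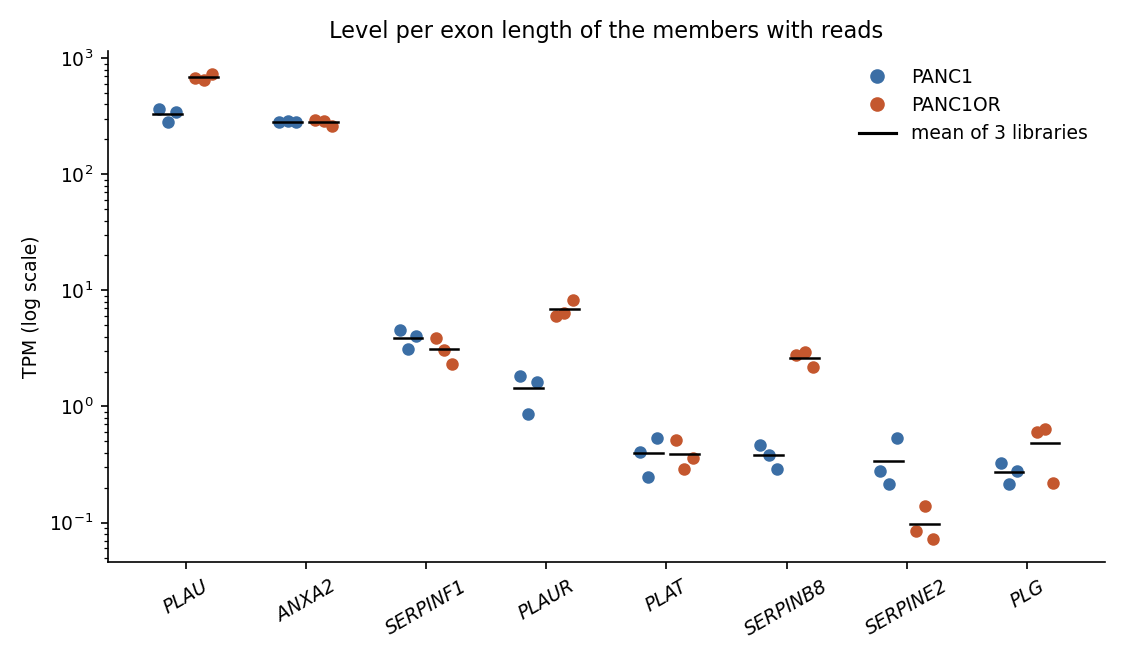
Level per exon length in TPM (vertical axis, log scale) of the 8 members with reads, ordered by their mean in PANC1. Each point is a library, blue for PANC1 and orange for PANC1OR, and black lines are means of 3. PLAU and ANXA2 lie far above the other 6 in both lines.

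Of 18 other inhibitor genes of plasminogen activators, plasmin and related proteases, 10 were tested, and 3 rose and 1 fell. Their median log2 fold change was 0.34. Over all tested genes 10.3% rose and 7.5% fell. The Kunitz inhibitor genes SPINT1, of matriptase and other membrane serine proteases (2.22 ± 0.45, adjusted p = 0.0111), TFPI, of the tissue factor pathway (1.19 ± 0.29, adjusted p = 0.0269), and APP, the amyloid precursor whose longer forms carry such a domain (0.83 ± 0.17, adjusted p = 0.0112), rose. TFPI2, a Kunitz inhibitor gene of plasmin, fell from 2.81 ± 0.552 to 0.0883 ± 0.0677 CPM (-5.08 ± 0.50, adjusted p = 0.000311). Without PANC1 replicates 1, 2 and 3 the list had 2, 2 and 1 calls. SPINT1, with 60.4% GC, was at 3.18, 3.12 and 7.10 CPM in PANC1OR replicates 1 to 3. Its log2 fold change was 1.72 to 2.57 over the fits without 1 library. SPINT1 lost its call without PANC1 replicate 2 or 3 (adjusted p of 0.0577 to 0.067), APP without PANC1 replicate 1 or 3 (0.0676 to 0.0745) and TFPI without any 1 library other than PANC1OR replicate 3 (0.0815 to 0.107).

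Of 8 genes of plasminogen receptors and other surface binders, 1 rose and 1 fell, beside 10.3% and 7.5% of all tested genes. ANXA1, an annexin gene of inflammation resolution, rose by 0.80 ± 0.20 (SE, adjusted p = 0.0295). CD44, the gene of the hyaluronan receptor, fell from 3252 ± 126 to 1566 ± 197 CPM (-1.05 ± 0.18, adjusted p = 0.0053). ENO1, a glycolytic enzyme gene whose product also binds plasminogen at the surface, was at 2358 ± 619 and 1500.0 ± 534 CPM (adjusted p = 0.188). With PANC1OR replicate 3 omitted, 1 rose and 4 fell, in a fit that called 44.1% of all tested genes. Without each of the other libraries 0 rose and 1 fell, and ANXA1 lost its call there (adjusted p of 0.0919 to 0.128).

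Among 25 genes of receptor partners, ligands and clearance, 18 were tested, of which 6 rose, 4 fell and 8 did not pass. The median log2 fold change was 0.09, and 17.8% of all tested genes were called. LRP1, the receptor that clears urokinase bound to serpins, rose from 24.0 ± 4.94 to 70.7 ± 31.4 CPM (1.55 ± 0.33, adjusted p = 0.0141), where the libraries were at 54.7, 50.5 and 107 CPM. SORL1, a sorting receptor gene of the same family, rose by 2.62 ± 0.22 (adjusted p = 0.000156). SRPX2, the gene of a secreted ligand of the urokinase receptor, rose from 2.48 ± 0.463 to 7.97 ± 0.679 CPM (1.69 ± 0.25, adjusted p = 0.00255). IGF2R, a lysosomal sorting receptor gene whose product binds the urokinase receptor, stood at -0.99 ± 0.19 (adjusted p = 0.00886), and ITGB3, an integrin chain of the vitronectin receptor, at -1.14 ± 0.22 (adjusted p = 0.00939). The integrin genes ITGA3, ITGA5 and ITGB5 also rose, and the caveolin gene CAV1 and the lipoprotein receptor gene VLDLR fell, all named after their values were seen.

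In that list 3, 5 and 2 genes were called without PANC1 replicates 1, 2 and 3, and 9, 8 and 12 without PANC1OR replicates 1, 2 and 3. Over all tested genes the same fits called 1920, 2400 and 1821, and 2324, 2437 and 8663, in place of 3345. LRP1 lost its call without PANC1 replicate 1, 2 or 3 (adjusted p of 0.0502 to 0.0734), IGF2R without PANC1 replicate 1 or 3 (0.0514 to 0.0551) and ITGB3 without PANC1 replicate 3 (0.064). ITGA3, ITGA5 and ITGB5 did so without each PANC1 library (0.102 to 0.149), VLDLR without PANC1 replicate 1 or 3 or PANC1OR replicate 2 (0.0726 to 0.113), and CAV1 without any 1 library other than PANC1OR replicate 3 (0.0664 to 0.163). SORL1 and SRPX2 kept theirs in each of these fits.

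Of 19 genes of proteases that activate pro-urokinase or plasminogen and of related proteases, 6 were tested, and by edgeR's test 0 rose and 1 fell. The share called, 16.7%, was near the 17.8% of all tested genes. Another 2 of the list were higher at an unadjusted p under 0.05, DESeq2 called 1 higher and edgeR's likelihood ratio test 2. HTRA1, a secreted serine protease gene not known as a main activator of the cascade, fell from 46.2 ± 9.15 to 9.70 ± 3.75 CPM (-2.26 ± 0.31, adjusted p = 0.00189). ST14, the gene of matriptase, a membrane activator of pro-urokinase, had 11 and 18 reads in all and was not tested. CTSB, a lysosomal protease gene that can activate pro-urokinase, was at 203 ± 41.9 and 223 ± 59.0 CPM (adjusted p = 0.773). Omitting PANC1OR replicate 3 gave 1 higher and 1 lower call, and GC offsets gave 2 higher and 1 lower. Over all tested genes these fits called 8663 and 7317, in place of 3345.

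Of 28 substrates and effectors of plasmin and urokinase, 18 were tested, and 7 rose and 1 fell, with a median log2 fold change of 0.57. The shares over all tested genes were 10.3% higher and 7.5% lower. LTBP1, which anchors latent TGF-beta in the matrix, rose from 41.3 ± 5.68 to 407 ± 13.9 CPM (3.30 ± 0.19, adjusted p = 3.48e-05). The collagenase gene MMP1 rose by 3.45 ± 0.33 (adjusted p = 0.000287). HGF, a growth factor precursor that urokinase can cleave, rose from 0.280 ± 0.287 to 63.4 ± 18.2 CPM (adjusted p = 8.52e-05). THBS1, a matrix glycoprotein gene named after its value was seen, was the 1 that fell (-2.67 ± 0.26). Of the 4 protease-activated receptor genes, also named after their values were seen, F2RL1 and F2R rose (0.94 ± 0.16 and 0.70 ± 0.19), F2RL2 did not pass (0.57 ± 0.35, adjusted p = 0.327) and F2RL3, with 6 and 4 reads, was not tested. F2R lost its call without any 1 library other than PANC1OR replicate 3 (adjusted p of 0.0964 to 0.182). The fibrinogen chain genes FGA, FGB and FGG were at or below 0.0374 CPM.

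Of 22 transcription factor genes of the AP-1 and ETS families and their partners at the urokinase promoter 21 were tested. Of these 6 rose, 2 fell and 13 did not pass, with a median log2 fold change of 0.16, where 17.8% of all tested genes were called. FOSL2, a FOS family gene, rose from 45.4 ± 2.04 to 140 ± 36.9 CPM (1.62 ± 0.22, adjusted p = 0.00178), ETV4, an ETS factor gene, by 1.80 ± 0.32 (adjusted p = 0.00628) and KLF4, a Kruppel-like factor gene, by 2.50 ± 0.40 (adjusted p = 0.00378). ETS2 fell from 516 ± 5.72 to 211 ± 18.5 CPM (-1.29 ± 0.16, adjusted p = 0.00121). FOS itself, named after its value was seen, was the other that fell, from 8.40 ± 1.94 to 2.87 ± 1.46 CPM (-1.55 ± 0.42, adjusted p = 0.0393). FOS lost its call without PANC1 replicate 1, 2 or 3 (adjusted p of 0.0911 to 0.159). FOSL1 and JUN were at 255 ± 36.6 and 89.1 ± 27.0 CPM in PANC1 and 285 ± 134 and 125 ± 53.1 in PANC1OR, and did not pass (adjusted p of 0.79 and 0.381). The list had 4 calls without each of PANC1 replicates 1, 2 and 3 and 13, of which 8 were higher, without PANC1OR replicate 3. The last of these fits called 44.1% of all tested genes.

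Over the 11 lists together, 43 of 106 tested genes were called, counting each gene once, 29 higher and 14 lower, with a median log2 fold change of 0.30, beside 17.8% and 0.04 over all tested genes. The lists were written with earlier results of these data known, so this share is a description. Without PANC1 replicates 1 and 3 it was 26 and 23 genes.

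**Figure D4:**
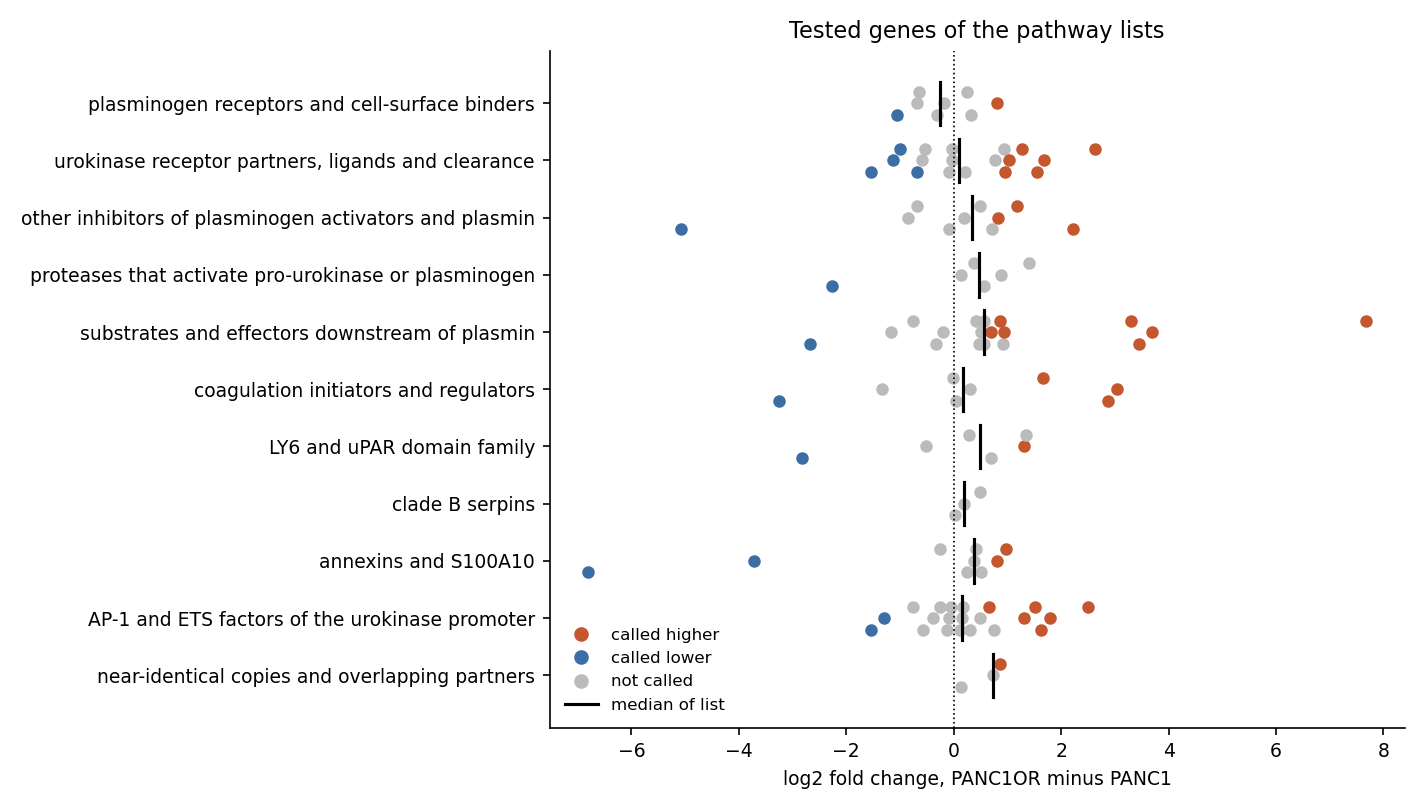
Log2 fold change, PANC1OR minus PANC1 (horizontal axis), of the tested genes in each of the 11 lists (vertical axis). Orange and blue points are called higher and lower, grey points are not called, and the black line is the median of the list. HGF, at 7.67, and ANXA3, at -6.80 from a fit with no PANC1OR read, are the outermost points.

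The genes with patterns most like those of the called members were found among 10651 protein-coding genes, as the smallest root mean square difference of centred log2(CPM + 0.5) values over the 6 libraries. For PLAU these were TSHZ1, a zinc finger gene (0.0419), OTUB2, a deubiquitinase gene (0.0559), and LGMN, the gene of the protease legumain (0.0649). For PLAUR they were PEAR1, a platelet receptor gene (0.11), ANK1, an ankyrin gene (0.13), and NAV1, a neuron navigator gene (0.131). For SERPINB8 they were RAB39B, a small GTPase gene (0.11), APOL6, an apolipoprotein L gene (0.129), and ZNF620, a zinc finger gene (0.131). For SERPINE2 they were EPM2A, the gene of laforin (0.148), MAP3K15, a kinase gene (0.169), and COL4A5, a collagen chain gene (0.181). Their log2 fold changes were -0.99, -0.78 and -0.88, beside -1.76 for SERPINE2. The levels of SERPINE2 are near the added 0.5 CPM, which shrinks its difference in this measure. The measure spans 2 lines of 3 libraries, so genes with a like difference between the lines rank high in it.

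Neighbouring genes were read in the same fit, a comparison added after the values of the members were seen. The nearest 2 tested protein-coding genes on each side of PLAU were CAMK2G, NDST2, VCL and AP3M1, and none passed (edgeR adjusted p of 0.624, 0.31, 0.0504 and 0.648). At PLAUR they were CADM4, ZNF428, SMG9 and KCNN4, and none passed either (0.0923, 0.999, 0.915 and 0.719). Beside SERPINB8, VPS4B, at a distance of 548 kb, did not pass (0.753), KDSR, at 603 kb, rose by 0.84 ± 0.18, DSEL, at 3487 kb, rose by 2.58 ± 0.28, and TMX3, at 4654 kb, did not pass (0.246). Next to SERPINE2, WDFY1 and DOCK10 rose by 1.02 ± 0.24 and 1.89 ± 0.35 while SERPINE2 fell, and MRPL44 and CUL3 did not pass.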

How the data were processed

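Messenger RNA was sequenced from 3 cultures of each line. The authors deposited raw read counts per gene. Reads were checked with FastQC 0.11.5, trimmed with cutadapt, aligned with STAR 2.5 to GRCh38 and counted with featureCounts (Subread 1.6.2), per the submitters' processing notes. The sources used here do not give the annotation release, strand setting or handling of multiply aligned reads. Another 5 columns of the deposited file, without values, were left aside. From 58735 rows, edgeR 4.0.16 in R 4.3.3 retained 18751 by filterByExpr; these were scaled with TMM factors and compared with the quasi-likelihood F test on 6 libraries, with Benjamini-Hochberg adjustment over all tested genes. CPM uses the TMM-adjusted total, and TPM divides counts by exon length from GENCODE 44 (GRCh38), which held 58207 of the identifiers. Standard errors come from the F statistic. The fit was tested on simulated counts that held no GC trend between libraries, so that test does not cover the trend seen here. Alternatives were DESeq2 1.42.0 (test and size factors), upper quartile factors, edgeR's likelihood ratio test, other filters, GC offsets, the replicate number as a block and each library left out. Members, lists and tests were chosen with earlier results of these data known. The naming rule took the 9 members, 6 fixed genes, up to 4 called genes of each list with the smallest p and a mean of at least 1 CPM (each called gene where there were 4 or fewer), and 3 genes of most similar pattern per called member. Of the genes the rule names, 2 are not reported here. Protein sequences are not used here.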

Additional observations from a re-analysis of the deposited data

How the results depend on the processing

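PLAU, PLAUR and SERPINB8 kept their direction and their call in each of the 16 alternatives, with ranges of 0.94 to 1.22, 1.89 to 2.51 and 2.62 to 2.97. SERPINE2 ranged from -2.00 to -1.33 over the fits without 1 library and was -1.66 with the replicate number as a block. PLG ranged from 0.68 to 1.11 without 1 library and was 1.08 (called) when both PANC1 replicate 2 and PANC1OR replicate 3 were dropped, an alternative chosen after seeing the data. The count of members lower was 0 or 1 without 1 library, 0 with the block and 0 with a filter of at least 1 CPM in 3 libraries, which does not test SERPINE2.

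Over all tested genes, the fits without 1 library called 1821 to 8663 genes, 1103 to 4340 higher and 718 to 4323 lower, with 681 to 1544 past the cutoffs of the series design text. GC offsets called 7317 (3741 higher, 3576 lower), the block with GC offsets 6284 (3218 and 3066), the block alone 922 lower, and dropping both libraries 11422 (5664 and 5758). Of the listed genes 65 were called with GC offsets, 81 without both libraries and 23 to 61 without 1 library. A value was counted as reversed where its sign changed and either the main fit or the alternative called the gene. Sign changes without a call, as for PLAT and ANXA2, were not counted. Reversed values were those of JUND without PANC1OR replicate 3 (-0.54, in a range of -0.54 to 0.38 over the fits without 1 library) and of JUND (-0.38), LY6E (-0.29) and FOSL1 (-0.20) without both libraries. The main fit called none of these genes. The cause was not tested. Deviations of same-numbered libraries correlated at 0.46, -0.45 and -0.22 across genes. Those of PANC1 replicate 2 and PANC1OR replicate 3, which deviated the same way by GC, correlated at 0.51. With this GC trend in the values, they cannot decide whether the replicate numbers pair the libraries. The block called 2324 genes in place of 3345. Depth limits PLAT, PLG, SERPINE2 and SERPINB8, with 28 to 41 reads in all in PANC1.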

Other observations

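Of 14 coagulation initiators and regulators, which border the fibrinolytic system, 8 were tested, and by edgeR's test 3 rose, 1 fell and 4 did not pass, with a median log2 fold change of 0.17. Over all tested genes 17.8% were called and the median was 0.04. PROCR, the endothelial protein C receptor gene, rose from 7.26 ± 2.60 to 59.3 ± 13.7 CPM (SD, n = 3; log2 fold change 3.04 ± 0.32), TGM2, a transglutaminase gene, by 2.88 ± 0.36 (46.4, 48.3 and 99.1 CPM in the resistant libraries), and PROS1, the gene of protein S, by 1.66 ± 0.30. THBD, the thrombomodulin gene, fell from 2.54 ± 0.818 to 0.256 ± 0.217 CPM (-3.26 ± 0.55). F3, the gene of tissue factor, had 30 reads in PANC1 and 4 in PANC1OR and was not tested.

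Of 9 tested annexin list genes 2 rose, 2 fell and 5 did not pass, where 17.8% of all tested genes were called. ANXA6, a membrane-organizing annexin gene, fell from 82.5 ± 24.6 to 6.28 ± 1.73 CPM (-3.72 ± 0.32). ANXA3 had 36 reads in PANC1 and 0 in PANC1OR (at least 15.6-fold lower against a floor of 3 reads over the group). ANXA5, a phosphatidylserine-binding annexin gene, rose by 0.98 ± 0.20, and ANXA1 also rose. Only 2 were called when PANC1 replicate 1 or 3 or PANC1OR replicate 1 was omitted, where ANXA5 lost its call (adjusted p of 0.0581 to 0.0845). In the family that shares the fold of the urokinase receptor, 6 of 18 genes were tested. Of these 1 rose, 1 fell and 4 did not pass, beside the same 17.8% over all tested genes. CD59, a lipid-anchored complement inhibitor gene, rose from 346 ± 21.4 to 855 ± 77.9 CPM (1.305 ± 0.17), and GPIHBP1, a lipase-binding protein gene, fell from 2.83 ± 0.627 to 0.399 ± 0.268 CPM (-2.83 ± 0.48). ANXA2R, a gene named as a receptor of annexin A2, rose by 0.86 ± 0.22 (adjusted p = 0.0311) and lost its call without any 1 library other than PANC1OR replicate 3 (0.064 to 0.138).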
